A study of Mus musculus with 13 samples.

Results

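The genes described here are the mouse Zfp genes, a large group whose symbols stand for zinc finger protein. They were chosen by symbol alone: protein-coding genes of the mm9 annotation GENCODE vM1 that are named Zfp followed by a number from 100 to 799. This gave 237 gene models under 233 symbols, since 4 symbols (Zfp319, Zfp664, Zfp708 and Zfp738) have 2 models each, out of 22359 protein-coding genes on chromosomes 1 to 19, X and Y. The rule uses no measured value, though it was set with earlier results of these data known. Chromosome 7 carried 64 of the genes, chromosome 13 carried 25 and chromosome 17 carried 16. The start of another member, under another symbol, lay within 100 kb for 103 of them. The bounds of 12, with 1 kb on either side, overlapped those of another member and can share its peaks.

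R-loops were mapped in N2a cells, a mouse neuroblastoma line labelled wild type, by DRIP-seq, in which hybrids of RNA and DNA are pulled down from cut genomic DNA with the S9.6 antibody and sequenced. Cells of the 3 groups had been transfected with a scramble siRNA (siScramble), an siRNA against the putative RNA helicase DDX1 (siDDX1) or an siRNA against EXOSC3, a cap subunit of the RNA exosome (siEXOSC3). Each group had 3 untreated libraries, where untreated means not digested with RNase H, and 1 library from DNA digested with RNase H, the enzyme that removes the RNA of a hybrid. All libraries came from the 1 cell line and from DNA cut with the same 5 restriction enzymes, and the time after transfection is not given in the labels. The peak lists held 23882 to 42571 peaks in the untreated libraries and 3811 to 8034 after RNase H. They give no read totals, so the depth behind a call is known only through the number of peaks. In 12 of 12 lists the peak names give another treatment than the sample title, in a fixed rotation: titles with siScramble go with peak names of siDDX1, siDDX1 with siEXOSC3, and siEXOSC3 with siScramble. Groups below are those of the titles, nothing used here settles which side is right, and every direction between groups depends on it. Peaks are calls of hybrids and not RNA levels, so they check neither the depletion nor the cell type. Ddx1 was called in 9 of 9 untreated libraries and Exosc3 in 4 of 9. Of 9 genes of the sympathetic lineage 3 were called in 9 of 9, and of 7 glial and fibroblast genes 1. The share over all protein-coding genes was 26.2%, so these small counts carry no lineage contrast.

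Most Zfp proteins bind DNA through tandem C2H2 zinc fingers, small domains that each hold a zinc ion between a pair of cysteines and a pair of histidines. Many also carry a KRAB domain, which recruits TRIM28 and the histone methyltransferase SETDB1 to silence transposable elements. In such genes the whole run of fingers is usually encoded by the last exon, as repeats joined by short linkers, and the genes lie in clusters that grew by duplication. R-loops form behind RNA polymerase, where the new RNA pairs with its template strand, and are known from CpG-rich promoters and from the ends of genes.

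The finger repeats can be read in the 3' exon, here the last exon of the model transcript. The motif ACNGGNGANAANCC, which spells the conserved linker peptide between fingers with N at the last base of each codon, was searched on both strands. Since N is any base, the motif also admits near relatives of that linker. The motif stood on the coding strand in the 3' exon of 134 of 237 Zfp genes (56.5%), against 1.27% of the 22122 other protein-coding genes and 1.85% of all. On the opposite strand it was found in 0 Zfp genes and 0.131% of the others. One repeat, linker to linker, spans 84 bases. The first such repeats are shown for 3 genes whose 3' exon was called in 9 of 9 untreated libraries and 3 where it was called in 0 of 9, because these groups differ in base composition. The called genes were taken in order of the covered share of the 3' exon, the others in order of linker number. Picked by different rules, the 6 repeats do not stand for their groups. Capitals mark both linkers. Coordinates are mm9, and each sequence is read 5′ to 3′ on the strand of its gene. They lie in coding exon sequence of Zfp629 at chr7:134755455-134755552 (minus strand), Zfp689 at chr7:134588192-134588289 (minus strand), Zfp180 at chr7:24890197-24890294 (plus strand), Zfp160 at chr17:21162826-21162923 (plus strand), Zfp442 at chr2:150235004-150235101 (minus strand) and Zfp458 at chr13:67358651-67358748 (minus strand).
Zfp629, called in 9 of 9: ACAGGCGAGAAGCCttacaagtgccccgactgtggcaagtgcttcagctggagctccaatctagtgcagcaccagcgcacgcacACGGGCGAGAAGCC
Zfp689, called in 9 of 9: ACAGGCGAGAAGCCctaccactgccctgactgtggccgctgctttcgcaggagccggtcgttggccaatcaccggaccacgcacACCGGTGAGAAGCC
Zfp180, called in 9 of 9: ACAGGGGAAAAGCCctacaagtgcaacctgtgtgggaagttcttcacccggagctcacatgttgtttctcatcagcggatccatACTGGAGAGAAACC
Zfp160, called in 0 of 9: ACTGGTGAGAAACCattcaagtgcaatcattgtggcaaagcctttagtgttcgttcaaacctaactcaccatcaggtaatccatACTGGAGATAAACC
Zfp442, called in 0 of 9: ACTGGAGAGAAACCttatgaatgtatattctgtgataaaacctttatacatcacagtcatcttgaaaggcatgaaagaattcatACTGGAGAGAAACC
Zfp458, called in 0 of 9: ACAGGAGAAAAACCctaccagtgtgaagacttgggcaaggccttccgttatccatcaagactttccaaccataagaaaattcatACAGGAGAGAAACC
The repeats of Zfp629 and Zfp689 were 61.2% and 65.3% G or C, with 6 and 8 CG dinucleotides, and that of Zfp180 was 51.0% with 2. Those of Zfp160, Zfp442 and Zfp458 were 41.8%, 34.7% and 43.9% G or C with 1, 0 and 1 CG. All 6 hold 2 matches to the motif at the same spacing, while the letters at its N positions and the bases between the matches differ.

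Zfp genes carried peaks more often than other genes at their starts and at their 3' exons. A gene was called when at least 1 base of a peak lay within its bounds and 1 kb on either side. In the 9 untreated libraries 114 to 151 members were called, 56.6% ± 5.78 (SD, n = 9), against 38.3% ± 4.02 of the other protein-coding genes. The share was higher in the Zfp genes in 9 of 9 libraries. At the start, 1 kb either side of the model transcript's first base, 55 to 100 members were called (33.8% ± 6.80, against 21.9% ± 4.03 of others). At the 3' exon 46 to 85 were called (30.3% ± 5.98, against 17.9% ± 3.09). Both shares were above those of other genes in 9 of 9 libraries. Internal exons stood closer together, with 23.1% ± 5.02 of members and 19.9% ± 3.12 of others called, members being higher in 8 of 9 libraries. No test of the gene set was made, so these shares describe the lists. They do not extend to Zfp genes with other numbers. Starts were called in 9 of 9 libraries in 4.26% of Zfp genes with 1 or 2 digits and 3.33% of Zfp800 to Zfp999. The background over all genes was 11.2%. Their 3' exons were at 8.51% and 5.00%, with a background of 9.23%. Gene length was alike, with a median of 15187 bases in members and 15426 in others, whereas the 3' exon was longer, 2356 against 957 bases.

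**Figure D1:**
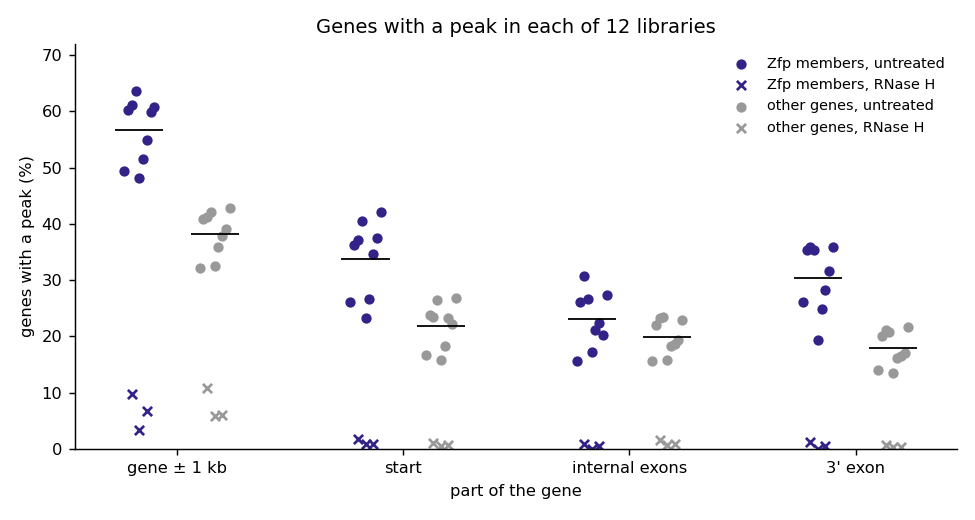
Percent of genes with a peak (y axis) over the gene bounds with 1 kb, the start, the internal exons and the 3' exon (x axis), for Zfp members (dark) and other protein-coding genes (grey). Each dot is 1 untreated library, each cross 1 RNase H library and each bar the mean of 9 untreated libraries; at the 3' exon members averaged 30.3% and others 17.9%.

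Within each class of 3' exon length the share of Zfp exons called was also above that of others. The counts are small and the differences were not tested. Of those up to 1000 bases 6 of 35 (17.1%) were called in 9 of 9 libraries, against 7.59% of others, and in the longest class, with 33 Zfp exons, 6 (18.2%) against 15.1%. The 2 classes between gave 8 of 61 (13.1%) against 9.40% and 17 of 108 (15.7%) against 11.9%. Of 425 ± 96.1 peaks per untreated library (SD, n = 9), 18.4% ± 1.99 had their midpoint at a start, 17.3% ± 1.62 in a 3' exon, 5.76% ± 0.66 in internal exons and 49.9% ± 3.34 in introns and other transcribed bases. These parts make up 6.33%, 8.08%, 2.52% and 79.5% of the bases searched. The 1 kb flanks held a further 8.71% ± 0.71 of midpoints on 3.54% of the bases. This split was not made for other genes. Merging the peaks of 9 libraries gave 887 regions over the Zfp genes, of which 108 were called in 9 of 9 libraries and 383 in 1 alone. An edge lay exactly on a cut of 1 of the 5 enzymes in 57.5% ± 4.61 of peaks, so an edge often marks the end of a DNA fragment.

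Many calls recurred in every untreated library. Within the gene bounds 97 members (40.9%) were called in 9 of 9 libraries and 64 (27.0%) in none, where 26.2% and 50.1% of all protein-coding genes were. The start was called in 9 of 9 for 40 members, with a background of 11.2%, and in none for 112, with a background of 65.8%. For the 3' exon these counts were 37 and 127, with backgrounds of 9.23% and 71.5%. Internal exons gave 21 (8.86%) and 138 (58.2%), with backgrounds of 10.8% and 69.5%. Their share called in 9 of 9 was thus below the background. The same gene was called at both ends in 9 of 9 libraries for 11 members. In 5 members the 3' exon was called in 9 of 9 and the start in none, and in 10 the reverse held. Requiring the summit of a peak inside the part, rather than 1 base of overlap, left 9 starts, 4 sets of internal exons and 12 3' exons called in 9 of 9, since long peaks reach into parts where their summit does not lie. With peaks of −log10 q of at least 5 alone, 22 3' exons remained in the count.

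The 10 largest covered 3' exons belonged to Zfp316, Zfp629, Zfp628, Zfp526, Zfp281, Zfp282, Zfp740, Zfp467, Zfp553 and Zfp408, ranked by the median number of bases under a peak over the 9 untreated libraries. All 10 were at 0 bases in each of the 3 RNase H libraries. The bounds of Zfp316, Zfp628 and Zfp408 overlap those of another gene, so part of their peaks may lie over both. In Zfp316 the covered bases of the 5869-base exon were 4994, 5869 and 5869 in siScramble, 5869, 3871 and 4519 in siDDX1 and 5141, 5577 and 5598 in siEXOSC3. The groups overlapped. In Zfp629 they were 3987, 4655 and 4684 in siScramble, 4684, 3336 and 3910 in siDDX1 and 4684 in each of the 3 siEXOSC3 libraries. In Zfp281, a transcription factor of pluripotent stem cells, they were 3057, 2803 and 3130 in siScramble, 2878, 1105 and 1470 in siDDX1 and 1815, 3285 and 1815 in siEXOSC3. Here too the groups overlapped, with siDDX1 replicate 2 lowest. Zfp281 also stood apart by its base composition, since its 3' exon was 42.4% G or C while the other 9 lay between 50.6% (Zfp740) and 63.0% (Zfp628).

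**Figure D2:**
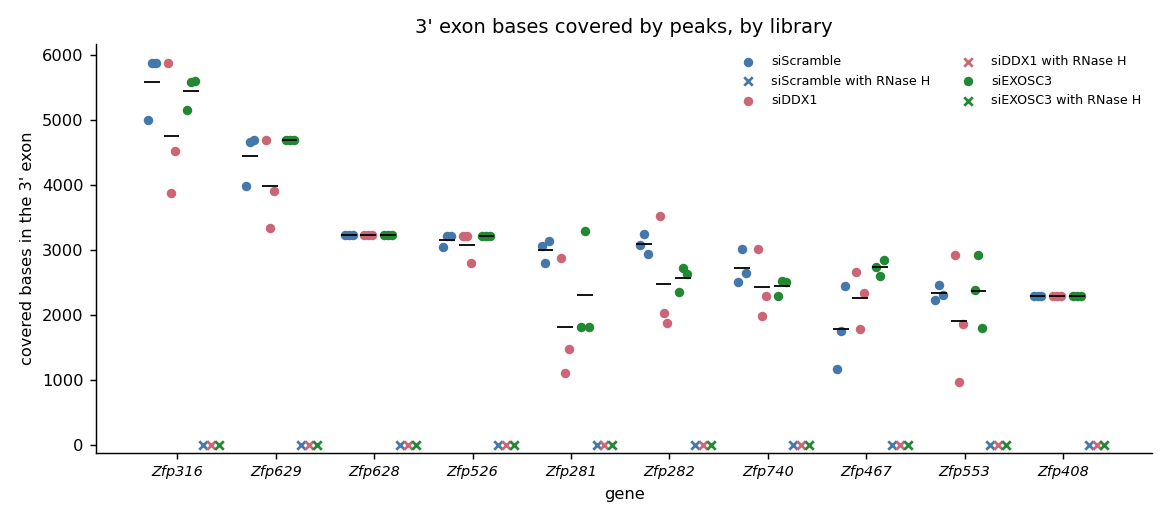
Bases of the 3' exon under peaks (y axis, bases) for the 10 Zfp genes with the largest median (x axis). Dots are untreated libraries coloured by the group of the title, bars are group means of 3 libraries, and crosses are the RNase H libraries, which all lie at 0; Zfp628 and Zfp408 have the same value in 9 of 9 libraries, 3228 and 2284 bases.

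Zfp628 and Zfp408 showed why covered bases can be identical between libraries. A peak covered the whole 3228-base 3' exon of Zfp628 on chromosome 7 in 9 of 9 libraries and always ended at base 4874025, an enzyme cut. In 6 of 9 libraries it ran from base 4869823, chr7:4869823-4874025, 4203 bases in all. The left end of this peak is shown with 20 bases before it, at chr7:4869803-4869842 (plus strand), and capitals mark the BsrGI site.
Zfp628, left end of the peak: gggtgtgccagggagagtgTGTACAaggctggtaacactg
The peak begins 1 base inside the site, where BsrGI cuts. The fold enrichment that the peak caller gave for it, a ratio over local background, ran from 13.5 in siScramble replicate 1 to 30.2 in siEXOSC3 replicate 3. Over Zfp408, a gene linked to retinal disease, 1 peak at chr2:91482144-91486109 had the same edges in 9 of 9 libraries, both on enzyme cuts. It covered 2284 of the 2805 bases of the 3' exon.

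The 10 starts with the most covered bases were those of Zfp593, Zfp622, Zfp672, Zfp703, Zfp706, Zfp629, Zfp746, Zfp236, Zfp524 and Zfp553. In 4 of them (Zfp593, Zfp622, Zfp672 and Zfp703) all 2001 bases of the start window lay under peaks in 9 of 9 untreated libraries. Zfp593 and Zfp622 are related to ribosome biogenesis factors of yeast, and Zfp703 is known as an oncogene in breast cancer. Zfp629 and Zfp553 were in both lists of 10. The start of Zfp746, which encodes a repressor known as PARIS and degraded by the ligase parkin, varied more: it had 1274, 2001 and 2001 covered bases in siScramble, 2001, 692 and 0 in siDDX1, and 2001, 1586 and 2001 in siEXOSC3. All 10 starts were at 0 in the 3 RNase H libraries.

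The 200 bases before the start are shown for 1 of these 10 genes whose stretch held no annotated exon, Zfp622 at chr15:25913921-25914120 (plus strand), beside 2 members called in 0 of 9 libraries over their whole bounds, Zfp600 at chr4:146124891-146125090 (plus strand) and Zfp619 at chr7:46772936-46773135 (plus strand). The latter were taken as the never-called members with the most linkers. Capitals mark CG dinucleotides, since the start classes below rest on the ratio of observed to expected CG, there over the whole start window.
Zfp622, start called in 9 of 9: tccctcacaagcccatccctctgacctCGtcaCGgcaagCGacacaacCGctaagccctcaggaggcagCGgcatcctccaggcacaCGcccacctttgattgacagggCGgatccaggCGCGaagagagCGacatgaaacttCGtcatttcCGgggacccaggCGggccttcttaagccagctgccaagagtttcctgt
Zfp600, called in 0 of 9: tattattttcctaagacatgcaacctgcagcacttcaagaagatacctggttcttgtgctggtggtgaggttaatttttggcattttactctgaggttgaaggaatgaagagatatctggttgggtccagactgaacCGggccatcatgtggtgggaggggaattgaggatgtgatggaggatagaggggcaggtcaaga
Zfp619, called in 0 of 9: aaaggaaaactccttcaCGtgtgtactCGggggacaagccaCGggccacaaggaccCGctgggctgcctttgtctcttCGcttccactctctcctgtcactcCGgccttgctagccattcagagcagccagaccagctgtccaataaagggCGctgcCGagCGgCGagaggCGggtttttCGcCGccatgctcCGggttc
These stretches held 13, 1 and 14 CG and were 60.5%, 46.5% and 61.0% G or C. Zfp619 thus had 1 CG more than Zfp622 and no call, so CG number did not order these 3 genes by calls.

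Across all members, calls were more frequent at higher GC content of the 3' exon and at a higher CpG observed-over-expected ratio of the start. Of 78 Zfp 3' exons with up to 42% G or C, 1 (1.28%) was called in 9 of 9 libraries, and over 42 to 45% it was 2 of 37 (5.41%). Over 45 to 50% the count was 8 of 48 (16.7%), over 50 to 55% 10 of 34 (29.4%) and over 55% 16 of 40 (40.0%). In the other genes the same classes gave 1.84%, 4.78%, 8.75%, 15.9% and 19.7%. The median GC content was 42.4% in the 127 3' exons never called, 47.1% in the 73 called in 1 to 8 libraries and 54.4% in the 37 called in 9 of 9. The restriction fragment at the middle of the 3' exon also lengthened, with medians of 627, 1085 and 2074 bases in the same order. The separate parts of GC content and fragment length were not tested. Across the 237 members the GC content of the 3' exon and the number of libraries with a call had a Pearson r of 0.54, as a description over genes that share libraries and base composition.

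**Figure D3:**
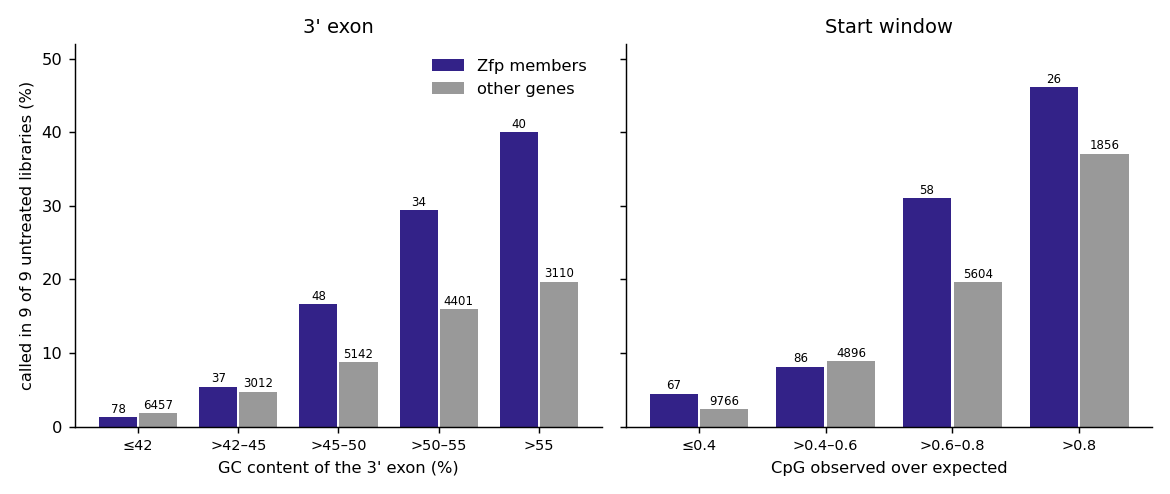
Percent of genes called in 9 of 9 untreated libraries (y axis) by the GC content of the 3' exon (left) and by the CpG observed-over-expected ratio of the start window (right), for Zfp members (dark) and other protein-coding genes (grey). Numbers over the bars are genes in the class; members rise from 1.28% to 40.0% on the left and from 4.48% to 46.2% on the right.

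More linkers did not go with more calls. Of the 103 members with no linker motif in the 3' exon 22 (21.4%) were called there in 9 of 9 libraries, against 7 of 61 (11.5%) with 1 to 4, 8 of 57 (14.0%) with 5 to 9 and 0 of 16 with 10 or more. Among those called with at least 5 linkers were Zfp180 with 9, Zfp113 with 8, Zfp629 and Zfp112 with 7 each, and Zfp689 and Zfp334 with 6 each. In Zfp180 the covered bases of the 3' exon were 723, 1367 and 2034 in siScramble, 1978, 457 and 1115 in siDDX1 and 634, 686 and 1096 in siEXOSC3, with all groups overlapping. Linker number and libraries with a call had a Pearson r of −0.24 across the 237 members, again as a description.

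At the start, 3 of 67 members (4.48%) with a CpG observed-over-expected ratio of up to 0.4 were called in 9 of 9 libraries. This share was 7 of 86 (8.14%) over 0.4 to 0.6, 18 of 58 (31.0%) over 0.6 to 0.8 and 12 of 26 (46.2%) above 0.8. The other genes gave 2.37%, 8.93%, 19.6% and 37.1%. The restriction fragment that holds the start was also longer where calls recurred, with a median of 1189.5 bases for the 112 starts never called, 1740 for the 85 called in 1 to 8 libraries and 2576 for the 40 called in 9 of 9. GC content and fragment length move together with the calls, and their separate parts were not tested. Zfp238, a repressor needed for cortical neurons, had the lowest GC content of the 40 starts called in 9 of 9: its window was 39.8% G or C with a ratio of 0.28, and 1377 of its bases lay under peaks in each of the 9 libraries.

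Over their bounds, members with no other member's start nearby were called more often than those with several, while the 3' exons did not follow that order. Only members counted as neighbours here, and Zfp genes with other numbers did not. Of 134 members with no other member's start within 100 kb, 64 were called in 9 of 9 libraries and 34 in none. Of 68 with 1 or 2 such neighbours the counts were 24 and 19, and of 35 with 3 or more they were 9 and 11. The 3' exon was called in 9 of 9 libraries in 26, 5 and 6 members of these classes. On chromosome 13, where the median GC content of the Zfp 3' exons was 38.9%, 4 of 25 members were called in 9 of 9 libraries and 0 of 25 at the 3' exon. On chromosome 7, with a median of 48.7%, the counts were 25 of 64 and 14 of 64. GC content did not order all chromosomes in this way: on chromosome 6, with a median of 51.97%, 2 of 13 Zfp 3' exons were called in 9 of 9, and on chromosome 15, with 49.8%, 1 of 8. Over the gene bounds 10 of 12 members were called in 9 of 9 on chromosome 5, with a median of 44.7%, and 0 of 6 on the X chromosome, with 38.5%.

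Other zinc finger families chosen by symbol were set beside the Zfp genes as counts, with no test. Zfp genes with 1 or 2 digits were called in 9 of 9 libraries in 11 of 47 cases (23.4%), Zfp800 to Zfp999 in 9 of 60 (15.0%), and Zkscan and Zscan genes in 3 of 25. The background was 26.2% of all protein-coding genes. Those 3 families had the linker motif in 87.2%, 76.7% and 68.0% of their 3' exons. Klf and Sp genes, whose fingers bind GC boxes, were called in 11 of 26 (42.3%), and Zbtb genes, which carry a BTB domain, in 23 of 38 (60.5%). At the 3' exon 11 of 38 Zbtb genes but 1 of 26 Klf and Sp genes were called in 9 of 9. Zfp genes with 1 or 2 digits and Zfp800 to Zfp999 were at 8.51% and 5.00% there, below the background of 9.23%. At the start they were at 4.26% and 3.33%, also below the background of 11.2%. Klf and Sp genes were at 38.5% at the start and Zbtb genes at 36.8%.

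Among the members with a known role, 12 of the 15 found were called within their bounds in 9 of 9 libraries, where 26.2% of all genes were. These include Zfp143, an activator of small nuclear RNA genes, Zfp148, which binds GC-rich promoters, Zfp423, a partner of EBF factors in fat and cerebellum, Zfp462, a chromatin regulator of neural development, Zfp568, a KRAB repressor of placental Igf2, and Zfp609, a partner of the cohesin loader in neural progenitors. Zfp598 encodes the ubiquitin ligase that marks collided ribosomes. Its 3' exon was covered over all 907 bases in 9 of 9 libraries, and its start was called in none. The start of Zfp462 was covered over 1695 to 1801 bases in the 9 libraries, and its 3' exon was called in 1 of 9, siScramble replicate 3, at 635 bases. The start of Zfp148 had 968 to 1894 covered bases in the 9 libraries.

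The exceptions with a known role were Zfp711, Zfp521 and Zfp536. Zfp711, an X-linked gene mutated in intellectual disability, was at 0 bases in 12 of 12 libraries. Zfp521, a regulator of neural and blood progenitors, was at 0 in the 9 untreated libraries. Zfp536, which restrains neuronal differentiation, had 317 covered bases in siEXOSC3 replicate 2 and 0 in the other 8 untreated libraries. Of the cofactors of KRAB repression, 14 of 19 gene models on the list were called in 9 of 9 libraries and 0 in none. The backgrounds were 26.2% and 50.1% of all protein-coding genes. The list counts gene models, so Atf7ip enters it more than once. The gene of TRIM28 itself had 2076 to 6400 covered bases, and that of SETDB1 had 6984 to 10758, with its 3' exon called in 9 of 9. Atrx, at 0 in siScramble replicates 1 and 2, and Cbx5, at 0 in 1 library of each group, were among the 5 models not called everywhere.

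To ask whether depletion of DDX1 or EXOSC3 went with a change over the Zfp genes, covered bases within the gene bounds were compared across the 3 groups for the 173 members with a peak in at least 1 untreated library. After Benjamini-Hochberg adjustment over 11149 genes 0 of 173 members passed 0.05 (exact permutation test of F over 280 splits), with a background of 0%. The lowest adjusted p was 1. The test was limited by its 280 splits, since its smallest p of 0.00357 could pass the adjustment only if many genes reached it. At an unadjusted p under 0.05 there were 6 members, 3.47% of those tested, against a background of 2.78%. A further 64 members had no untreated peak and were not tested. With n = 3 libraries a group, siScramble had 135 ± 15.6 members called (mean ± SD), against 129 ± 19.5 for siDDX1 and 139 ± 7.57 for siEXOSC3. As mean shares these were 57.0%, 54.4% and 58.5% of members beside 38.1%, 36.8% and 39.9% of other genes, so the groups stood in the same order in both.

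Zfp592, which forms a complex with Zfp687 and Zmynd8, had the lowest p (exact permutation p = 0.00357, adjusted p = 1). Its covered bases were 1444, 1518 and 1671 in siScramble, 815, 304 and 1409 in siDDX1 and 3256, 2506 and 4430 in siEXOSC3. These totals include an intronic peak, described below, that was also called after RNase H. That peak makes up all of the 815 and 304 bases of siDDX1 replicates 1 and 2. The 3 groups did not overlap, with siEXOSC3 by title the highest. At its start the values were 588, 0 and 0 in siScramble, 0 in each siDDX1 library and 1507, 1045 and 1681 in siEXOSC3. The siEXOSC3 libraries were thus also the highest at the start, while siScramble and siDDX1 shared values of 0 there. Zfp324 followed (exact permutation p = 0.0214), with 1498, 2227 and 1801 bases in siScramble, 1517, 977 and 842 in siDDX1 and 2729, 2082 and 2157 in siEXOSC3. Here 1 siDDX1 library lay above the lowest siScramble library, and siEXOSC3 overlapped siScramble as well.

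Zfp775 had 0, 648 and 377 covered bases in siScramble, 732, 0 and 529 in siDDX1 and 914, 999 and 3499 in siEXOSC3 (exact permutation p = 0.0286). Its siEXOSC3 libraries were all above the other 6, with replicate 3 far above the rest. Zfp511 had 1395, 2350 and 2510 in siScramble, 969, 0 and 428 in siDDX1 and 864, 251 and 1364 in siEXOSC3 (exact permutation p = 0.0357). Here siScramble was the highest group and the other groups overlapped. The bounds of Zfp511 overlap another gene, which starts on the opposite strand within 1 kb. The sixth gene, Zfp362, lay outside the naming rule and was named after its values were seen, with 0, 1550 and 2507, then 1660, 705 and 517, then 2596, 3775 and 5124 bases in the same order of groups (exact permutation p = 0.0464). With equal numbers of peaks per library the p of Zfp592, Zfp324 and Zfp511 were 0.0786, 0.111 and 0.179 by the same exact permutation test, and with peaks of −log10 q of at least 5 alone they were 0.157, 0.111 and 0.35. The p of Zfp775 was 0.0357 in both settings, and between 0.111 and 0.186 without any 1 siScramble library, any 1 siDDX1 library or siEXOSC3 replicate 3 (exact permutation test). The count of 6 became 10 without siScramble replicate 1, 18 without siDDX1 replicate 1, 3 without siDDX1 replicate 2 and 2 without siDDX1 replicate 3.

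**Figure D4:**
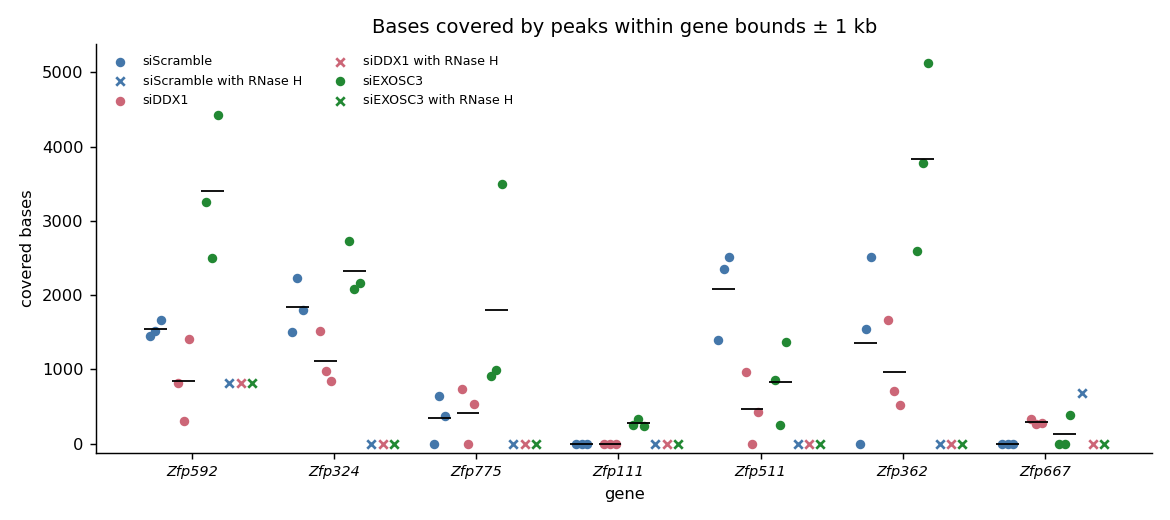
Bases under peaks within the gene bounds and 1 kb on either side (y axis, bases) for the 6 members with an unadjusted exact permutation p under 0.05 and for Zfp667 (x axis). Dots are untreated libraries by the group of the title, bars are means of 3 libraries and crosses are RNase H libraries; the 3 siEXOSC3 libraries of Zfp592 lie between 2506 and 4430, above the other 6.

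Calls present in all libraries of 1 group and absent from another were rare. Zfp667 was called in 3 of 3 siDDX1 libraries and 0 of 3 siScramble libraries, the only member of 173 in that direction, with a background of 0.179%. Its values were 336, 264 and 281 bases in siDDX1, 0 in each siScramble library and 0, 0 and 390 in siEXOSC3. The 3 siDDX1 peaks lay at different places of the gene, chr7:6251755-6252090, chr7:6250021-6250284 and chr7:6244442-6244722, so they were not 1 recurring site. The first of them overlapped the peak of siEXOSC3 replicate 3, chr7:6251701-6252090.

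Zfp111 was called in 3 of 3 siEXOSC3 libraries, with 257, 328 and 238 bases, and in 0 of 3 of either other group. The backgrounds were 0.861% against siScramble and 0.744% against siDDX1, and 1 member of 173 showed the pattern in each. In replicates 1 and 2 the peak began at base 24985339 of chromosome 7, while that of replicate 3 lay at chr7:24987801-24988038 near the start. No member was called in all siScramble libraries and absent from siDDX1 or siEXOSC3 (backgrounds 0.233% and 0.17%), nor in all siDDX1 libraries and absent from siEXOSC3 (background 0.197%). The peak of replicate 1 is shown with 1 base before it, from chr7:24985338-24985595 of mm9 on the plus strand, because this site recurred in siEXOSC3 replicates 1 and 2. It holds no annotated exon, and capitals mark the BsrGI site on which it begins.
Zfp111, peak of siEXOSC3 replicate 1: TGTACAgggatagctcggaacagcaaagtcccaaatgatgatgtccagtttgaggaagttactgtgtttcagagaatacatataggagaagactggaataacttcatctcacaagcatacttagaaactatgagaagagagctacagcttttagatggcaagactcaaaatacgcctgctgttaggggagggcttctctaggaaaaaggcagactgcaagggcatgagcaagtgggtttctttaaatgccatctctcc
This peak was 257 bases wide with a fold enrichment of 4.35 and a −log10 q of 3.21. With peaks of −log10 q of at least 5 alone, 5 other members (Zfp212, Zfp358, Zfp362, Zfp532 and Zfp775) met the rule in some pair and neither Zfp111 nor Zfp667 did. Across the members tested, the median difference was −192.7 bases for siDDX1 minus siScramble, 6.33 for siEXOSC3 minus siScramble and 171 for siEXOSC3 minus siDDX1, beside −124.3, −4 and 95 over all genes tested. These 3 comparisons share libraries, and the libraries differ in peak number: siScramble replicate 1 and siDDX1 replicate 2 had the fewest, 23882 and 24167. The part of peak number in these differences was not tested.

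Few Zfp genes were called after RNase H. The RNase H libraries called 8 to 23 members, 6.61% ± 3.17 (SD, n = 3) against 7.58% ± 2.78 of other genes, where untreated libraries called 114 to 151. Starts were called in 2 to 4 members, a mean of 1.13% against 0.726% of other genes and higher in 3 of 3 libraries, and 3' exons in 0 to 3, 0.563% against 0.377%. By a two-sided exact permutation test with the RNase H label moved within each group, 76 of 180 members tested were lower (42.2%, adjusted p = 0.0388, at the smallest p of 0.015625 that 64 assignments allow), with a background of 38.2%. All 76 were called in 9 of 9 untreated libraries, which the test requires. A gene reaches the smallest p as lower only if each untreated library lies above the RNase H library of its group. Members were called in 9 of 9 more often than all genes (40.9%, background 26.2%). The shares of 42.2% and 38.2% therefore do not show a stronger RNase H effect in members. Without 1 untreated library the smallest p is 0.0208. Then 69 to 88 members still lay at that smallest p, but the adjustment over all genes passed 0 of them without siScramble replicate 2 or 3, siDDX1 replicate 3 or any 1 of the siEXOSC3 replicates, and 85 to 88 without the others.

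**Figure D5:**
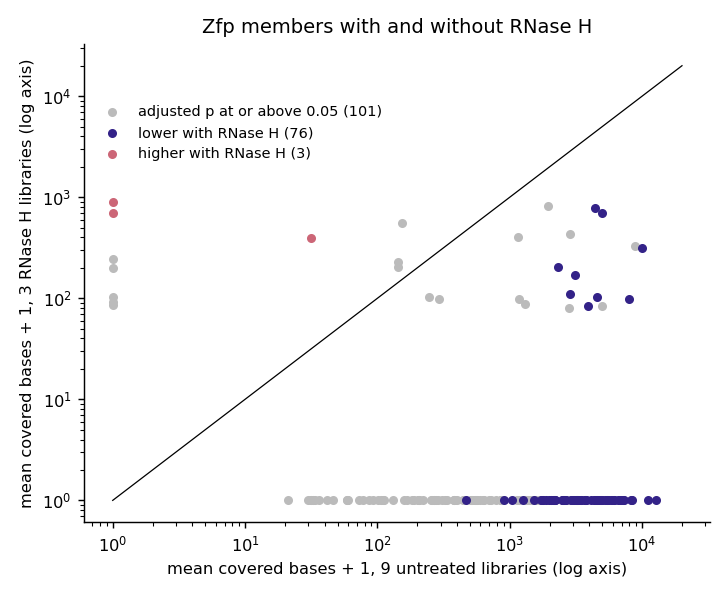
Mean covered bases plus 1 of each Zfp member in 9 untreated libraries (x axis, log scale) and in 3 RNase H libraries (y axis, log scale), for the 180 members with a peak in any library. Points on the lowest line had no peak after RNase H; 76 members were lower and 3 higher with RNase H at an adjusted p under 0.05, and the line marks equal values.

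Some members were called after RNase H, with or without an untreated peak. At least 1 RNase H library called 30 members (12.7%, background 13.5%), and 3 of 3 called 7 (2.95%, background 3.03%). Higher with RNase H were 3 members (background 2.11%), each at an exact permutation p of 0.015625 and an adjusted p of 0.0388. Zfp521 had 1172, 854 and 662 covered bases in the RNase H libraries of siScramble, siDDX1 and siEXOSC3, and 0 in 9 untreated libraries. Zfp141 had 1150, 774 and 152, and likewise 0 in 9. Zfp457 had 340, 500 and 340, with 273 in siScramble replicate 1 and 0 in the other 8. In total 7 members were called after RNase H and in no untreated library, and 57 were called in none of 12.

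A peak called in 12 of 12 libraries lay in an intron of Zfp592 ahead of the last exon, at chr7:88184767-88185581. It was 815 bases wide with the same edges in 11 of 12 libraries, RNase H included, and 304 bases wide in siDDX1 replicate 2. Its fold enrichment was 5.18, 7.41 and 6.42 in siScramble, 4.56, 5.53 and 6.21 in siDDX1, 10.6, 10.1 and 19.9 in siEXOSC3, and 9.71, 7.85 and 40.0 in their RNase H libraries. Each value is relative to the background of its own library, so the values are given side by side and not compared. The start of the same gene was at 0 in all 3 RNase H libraries. Both ends are shown on the plus strand of mm9, chr7:88184747-88184806 and chr7:88185542-88185601, because both edges lie at enzyme sites. Capitals mark enzyme sites, TCTAGA for XbaI and AAGCTT for HindIII.
Zfp592, left end: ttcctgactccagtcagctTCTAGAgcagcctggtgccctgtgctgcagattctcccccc
Zfp592, right end: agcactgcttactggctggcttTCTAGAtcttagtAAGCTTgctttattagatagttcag
The left edge fell on the XbaI cut and the right edge on the HindIII cut. The XbaI site of the right end lies inside the peak, so the peak runs across a cut and its ends do not show it to be a single fragment. Other members called in 3 of 3 RNase H libraries also had untreated peaks, such as Zfp467, a factor of bone and fat cells, with 404, 696 and 969 bases after RNase H and 2184 to 7050 in the untreated libraries, and Zfp516, a factor of brown fat, with 370, 363 and 242 against 5049 to 16045.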

How the data were processed

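The deposited peak lists of 12 libraries were analysed, and the input sample was not. Per the labels and the study's methods, the authors aligned reads to mm9 with Bowtie2 2.4.4 and SAMtools and called peaks in each library separately with MACS2 2.2.6. DESeq2 and HOMER 4.11 are also listed in the submitters' processing notes. The deposited lists give for each peak a position, a display score, a fold enrichment, which is a linear ratio, and its p-value and q-value as −log10, all as the authors' peak caller gave them. The position was used for all values, the fold enrichment to describe peaks within a list, and the −log10 q-value as a filter. Score and −log10 p-value entered no result. The study's DESeq2 test needs read counts, which were not used here, so peak calls and covered bases replaced it.

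The members and lists were chosen with earlier results of these data known. Groups came from the sample titles. Per the study's methods each condition used separate plates of the 1 cell line, so p-values measure the spread between these libraries. Each gene was given a model transcript, the protein-coding one with the longest coding sequence in GENCODE vM1. The only exon of the 5 single-exon models counted as the 3' exon. Bounds overlapped those of another protein-coding gene for 63 members, which can share its peaks. Across all genes with a peak, covered bases were compared by exact permutation tests with Benjamini-Hochberg adjustment, in Python 3.11.15 with numpy 2.4.6 and pandas 2.3.3. Sequences were read from NCBIM37, the mm9 assembly. One upstream sequence is not reported here. Code was tested on simulated data. The genes named were the 10 with the most covered bases at the 3' exon and at the start, those absent from 1 group and present in another, the 5 lowest p across groups, up to 10 called in most RNase H libraries and fixed lists of known roles and cofactors. Of the listed genes Zfp638 and Fam208a were not found by symbol. Alternatives were a stricter q-value, equal peak numbers, no extension, summits, another model transcript, a replicate block and leaving out each untreated library.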

Additional observations from a re-analysis of the deposited data

Results flagged for a closer look

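In Zfp667 the covered bases were higher with RNase H in siScramble and lower in siDDX1, at different places of the gene. The RNase H library labelled siScramble had 677 covered bases, in peaks at chr7:6239336-6239698 and chr7:6241293-6241606, while its 3 untreated libraries had 0. In siDDX1 the untreated libraries had 336, 264 and 281 bases and the RNase H library had 0. Every untreated library thus lay below its RNase H library in siScramble and above it in siDDX1. The RNase H peaks did not overlap the siDDX1 peaks given above, so no single region changed in both directions. With 1 RNase H library per group this difference was not tested.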

How the results depend on the processing

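The count of 0 members past the adjusted threshold across groups was the same under each alternative run, the replicate block included, and between 0 and 0 when each library was left out. In every run the smallest p could pass only if many genes reached it, so this agreement does not show that the count is stable. With 1 library left out in turn, 2 to 18 members had an unadjusted p under 0.05, 2 to 8 were all-or-none in some pair, and 0 to 88 were lower with RNase H at the adjusted threshold. Called in each remaining library were 97 to 103 members over the bounds, 40 to 48 starts, 21 to 27 sets of internal exons and 37 to 44 3' exons. All-or-none members numbered 5 with −log10 q of at least 5, 4 with equal peak numbers and 6 with bounds not extended, against 2 as reported, and the cause was not tested. The summit rule left 9 starts, 4 sets of internal exons and 12 3' exons called in 9 of 9, and the stricter q left 22 3' exons, as each admits fewer calls by construction. Members lower with RNase H numbered 55 to 75 under the stricter q, equal peak numbers and unextended bounds. Peaks that do not reach the start window called 31 3' exons in 9 of 9.

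Replicate numbers did not pair the libraries: deviations from group means over genes correlated between −0.17 and 0.099 in the 9 pairs with the same number, and 0 of 9 were above 0.1. With the replicate block, where 36 splits allow a smallest p of 0.0278, 1 member (Zfp592) had an unadjusted p under 0.05 and 0 passed adjustment. Of 63 values of single genes under the alternatives, 35 stayed on the same side of 0.05 and 28 did not. Zfp111 had no untreated peak left under the stricter q or with equal peak numbers, so those settings gave it no value. A peak call has a present and an absent state only, so a change of signal within a region called everywhere does not appear, and the depth behind each call is unknown.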

Other observations

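The RNase H lists gave further values over Zfp genes that no group comparison used. Zfp346, which encodes a protein that binds double-stranded RNA, had 1753, 0 and 567 covered bases in the RNase H libraries of siScramble, siDDX1 and siEXOSC3 and 1880 to 6847 in the untreated libraries. Zfp456, a member of the chromosome 13 cluster beside Zfp457, had 1376, 0 and 289 after RNase H, and 470, 490 and 422 in 1 untreated library of each group with 0 in the other 6. Of the 18 ± 10.5 peaks per RNase H library over Zfp genes (SD, n = 3), 69.7% ± 6.73 had their midpoint in introns and other transcribed bases, 18.8% ± 5.69 at a start and 1.96% ± 3.40 in a 3' exon. Of the 887 merged regions, 3 had a peak in 3 of 3 RNase H libraries.

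Divergent starts, with the start of another gene on the opposite strand within 1 kb, were found in 19 members. Of these 12 were called in 9 of 9 untreated libraries over their bounds and 1 in none, against 85 and 63 of the other 218. At the start the counts in 9 of 9 were 5 of 19 and 35 of 218. Whether a peak belongs to the member or to its neighbour cannot be told apart in such calls.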
